A study of Mus musculus with 15 samples.

Results

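Tek, Tie1, Angpt1 and Angpt2 encode the TIE receptors and the angiopoietins that act on them. They were found by gene symbol, 4 of the 24034 genes in the count table, and are described over 15 RNA-seq libraries in 5 groups of 3, all sorted from differentiating mouse embryonic stem cells. The cells carried LacZ under control elements of Eng, the gene of the TGF-beta co-receptor Endoglin (ENG). 2 groups, FLK1+ LacZ- and FLK1+ LacZ+, were mesoderm cells whose reporter was driven by the Eng promoter together with its -8, +7 and +9 kb enhancers, with FLK1 being the VEGF receptor encoded by Kdr. The other 3 groups, HEI ENG+FDG-, HEI ENG+FDG+ and HEI ENG-FDG+, carried a shorter reporter, in which only the -8 kb enhancer stood beside the promoter. FDG is a substrate that fluoresces when split by the LacZ product, so LacZ+ and FDG+ both mark cells with an active reporter. Every group carried a reporter, no group was treated with an agent the labels name, and stage and reporter line changed together, so that their effects cannot be told apart. Culture days, gates and the number of clones behind each line are not given. TIE2, the product of Tek, is one of the surface markers by which the study describes cells marked by the -8 kb reporter, and whether it also served as a gate is not stated.

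The TIE system sets how quiet or how responsive a vessel lining is. TIE2 is a receptor tyrosine kinase of endothelial cells and of some blood-forming cells, TIE1 is its relative that binds no angiopoietin firmly and acts by pairing with TIE2, angiopoietin-1 is an activating ligand usually made by mural and mesenchymal cells, and angiopoietin-2 is a context-dependent ligand stored in endothelial cells. In the embryo the endothelium gives rise to the first definitive blood cells, and mice without Tek or Tie1 have vascular defects.

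Depths ran from 9673396 to 16337785 counts a library. The replicate 1 libraries stood apart: within a group, their log2 levels correlated with those of replicates 2 and 3 at 0.864 to 0.933, against 0.987 to 0.990 between replicates 2 and 3, and 1.40 to 3.56% of their counts fell on the ribosomal precursor Rn45s, against 0.524 to 0.784% elsewhere. Eng, the sorted surface marker, stood at 180 to 962 CPM in the ENG+ HEI libraries and at 39.4 to 161 CPM in the ENG- ones. The labels name no separate cultures, so the p-values cover only the spread between these libraries, which may be technical.

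Both receptor genes lie on chromosome 4, some distance apart and on opposite strands (assembly GRCm38, the same as mm10). Tek spans chr4:94739289-94874976 on the forward strand and Tie1 spans chr4:118471191-118490061 on the reverse strand, with exons that cover 4712 and 4917 bases. Because their levels moved together in these libraries, their RefSeq promoters (assembly GRCm38.p6, 250 bases before to 50 after the annotated start) are shown, at chr4:94739039-94739338 on the forward strand for Tek and chr4:118489800-118490099 on the reverse strand for Tie1. Each is written 5′ to 3′ on the strand of its gene. Capitals mark GGAA or its reverse complement TTCC, the core of sites bound by ETS factors, and GATAA, the core of sites bound by GATA factors.
Tek: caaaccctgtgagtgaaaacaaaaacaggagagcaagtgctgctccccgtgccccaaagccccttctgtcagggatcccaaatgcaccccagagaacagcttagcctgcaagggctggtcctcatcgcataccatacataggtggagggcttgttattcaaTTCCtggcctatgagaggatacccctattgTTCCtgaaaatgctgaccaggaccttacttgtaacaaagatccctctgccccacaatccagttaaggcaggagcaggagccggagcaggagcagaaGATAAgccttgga
Tie1: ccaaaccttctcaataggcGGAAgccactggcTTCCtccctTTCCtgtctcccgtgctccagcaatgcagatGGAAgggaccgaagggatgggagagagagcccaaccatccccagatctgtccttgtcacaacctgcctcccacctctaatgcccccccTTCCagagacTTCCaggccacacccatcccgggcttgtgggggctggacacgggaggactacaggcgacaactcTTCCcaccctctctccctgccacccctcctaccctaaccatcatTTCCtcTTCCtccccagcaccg
Both strands were searched. The Tie1 window held 9 GGAA cores, a number reached by 1.59% of the 32851 RefSeq promoters of the same length. In the Tek window there were 2, as many as or fewer than in 84.6% of promoters. GATAA occurred in the Tek window alone, 1 time, and in 25.4% of all promoters. CANNTG, the E-box, occurred 2 times in Tek and 1 time in Tie1, and 72.3% of promoters held at least 1. Neither window held TGTGGT (RUNX factors), GTAAACA (FOXO factors) or ACGTG (hypoxia factors), which 16.8%, 3.65% and 19.6% of promoters held. These matches describe letters in a window and are not measurements of binding. Promoters of Angpt1 and Angpt2 are not shown.

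Tek, the TIE2 gene, stood near the middle of the tested genes in FLK1+ cells and among the most abundant transcripts in HEI cells. Levels are CPM, reads of a gene scaled to a common library size, after TMM scaling. In FLK1+ LacZ- libraries Tek stood at 8.97, 20.7 and 22.9 CPM, and in FLK1+ LacZ+ libraries at 46.8, 29.7 and 33.9 CPM (replicates 1, 2 and 3 in turn, here and below). In HEI ENG+FDG- libraries it stood at 587, 843 and 780 CPM, in ENG+FDG+ libraries at 517, 888 and 792 CPM, and in ENG-FDG+ libraries at 259, 554 and 525 CPM. The lowest HEI library was thus above the highest FLK1+ library. In the HEI groups the replicate 1 library was the lowest each time.

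Group means of Tek were 17.5 ± 7.48 CPM in FLK1+ LacZ-, 36.8 ± 8.92 in FLK1+ LacZ+, 737 ± 134 in ENG+FDG-, 732 ± 192 in ENG+FDG+ and 446 ± 163 in ENG-FDG+ (mean ± SD, n = 3 throughout). Per kb of exon, Tek ranked 180th of 13039 tested genes with a known length in ENG+FDG+ cells, 185th in ENG+FDG- cells and 366th in ENG-FDG+ cells, against 5127th in FLK1+ LacZ+ and 7311th in FLK1+ LacZ- cells. In bulk libraries fewer cells with a transcript and less of it per cell cannot be told apart, and this holds for every level here.

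Tie1, the partner receptor, had the same outline at a lower level. It stood at 2.52, 2.49 and 2.78 CPM in FLK1+ LacZ- libraries and at 28.5, 4.30 and 4.93 CPM in FLK1+ LacZ+ libraries. In HEI ENG+FDG- libraries Tie1 stood at 396, 151 and 171 CPM, in ENG+FDG+ libraries at 371, 183 and 167 CPM, and in ENG-FDG+ libraries at 103, 94.4 and 89.5 CPM. Every HEI library again lay above every FLK1+ library. Here replicate 1 was the highest in 4 of the 5 groups, and as a ratio to the next library it stood farthest out in FLK1+ LacZ+ cells.

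Means of Tie1 were 2.60 ± 0.158 CPM in FLK1+ LacZ-, 12.6 ± 13.8 in FLK1+ LacZ+, 240 ± 136 in ENG+FDG-, 240 ± 114 in ENG+FDG+ and 95.6 ± 6.78 in ENG-FDG+. Its rank per kb went from 11168th in FLK1+ LacZ- cells to 783rd in ENG+FDG+ cells.

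**Figure D1:**
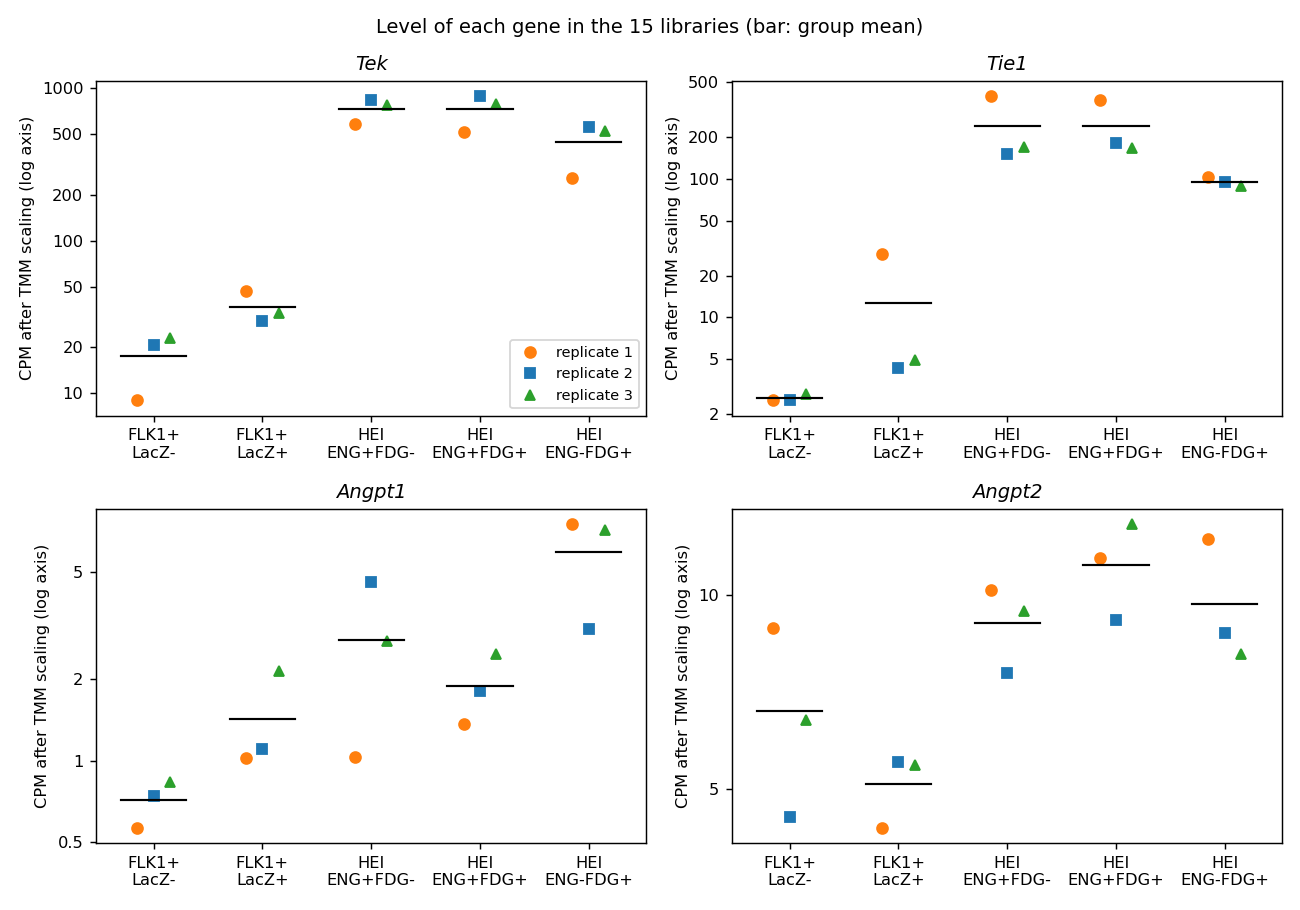
Level of Tek, Tie1, Angpt1 and Angpt2 in each of the 15 libraries, in CPM after TMM scaling on a log axis, by group. Points are libraries, with shape and colour giving the replicate number, and bars are group means; the HEI libraries of Tek and Tie1 lie above all FLK1+ libraries, while those of Angpt1 and Angpt2 overlap them.

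Angpt1, the activating ligand, was scarce everywhere. It spans chr15:42424723-42676977 on the reverse strand, with 5205 exonic bases, and the antisense gene Gm17473 overlaps its exons. The strand setting of the counting is not given, so reads of the pair cannot be told apart. Read counts were 8, 8 and 9 in FLK1+ LacZ-, 16, 11 and 21 in FLK1+ LacZ+, 17, 52 and 32 in ENG+FDG-, 21, 19 and 25 in ENG+FDG+, and 89, 32 and 84 in ENG-FDG+ libraries. Those numbers correspond to 0.711 ± 0.139, 1.43 ± 0.633, 2.80 ± 1.78, 1.89 ± 0.563 and 5.93 ± 2.48 CPM. The ENG-FDG+ libraries held the 2 highest values of the series, 7.55 and 7.16 CPM, and the FLK1+ LacZ- libraries the 3 lowest.

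Angpt2, the stored endothelial ligand, had the smallest difference of the 4 genes between the stages. It spans chr8:18690263-18741562 on the reverse strand, within Mcph1 on the other strand but with no shared exon, and has 3690 exonic bases. It stood at 8.90, 4.52 and 6.40 CPM in FLK1+ LacZ- libraries and at 4.34, 5.5 and 5.44 CPM in FLK1+ LacZ+ libraries. In ENG+FDG- libraries it stood at 10.2, 7.58 and 9.44 CPM, in ENG+FDG+ libraries at 11.4, 9.14 and 12.9 CPM, and in ENG-FDG+ libraries at 12.2, 8.75 and 8.09 CPM. A single FLK1+ library, LacZ- replicate 1, lay within the HEI range. Group means ran from 5.09 ± 0.651 CPM in FLK1+ LacZ+ to 11.2 ± 1.90 CPM in ENG+FDG+ cells. Angpt4, the remaining mouse angiopoietin, had 0 reads in 7 of the 15 libraries and at most 3 in any, and was not tested. In the libraries at 0, that count allows a level of up to 0.182 to 0.298 CPM, depending on the library, from counting error alone.

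Between the stages, all 4 genes rose from FLK1+ to HEI cells. The edgeR quasi-likelihood test compared the mean of the HEI groups with the mean of the FLK1+ groups, and 37.3% of the 13662 genes tested passed an adjusted p of 0.05. Tek was 24.5-fold higher, a log2 difference of 4.61 ± 0.31 (SE; adjusted p = 3.2e-07). Tie1 was 30.7-fold higher (4.94 ± 0.50, adjusted p = 8.7e-06). The ligands rose by less: Angpt1 3.11-fold (1.64 ± 0.38, adjusted p = 0.00444) and Angpt2 1.71-fold (0.78 ± 0.21, adjusted p = 0.00944). The median of the 4 was 3.13, against -0.11 over all genes tested. HEI and FLK1+ libraries did not overlap for Tek and Tie1, 2 of the 4, as for 18.2% of all genes, and they overlapped for Angpt1 and Angpt2. All 14 endothelial markers examined, such as Cdh5 (VE-cadherin), rose as well. Their summed level went from 522 to 1021 CPM in FLK1+ libraries to 2537 to 6854 CPM in HEI libraries. Of these sums Kdr, the gene of the sorted FLK1, alone gave 319 to 715 CPM in FLK1+ and 404 to 1036 CPM in HEI libraries. The part of the endothelial share of cells in the receptors' rise was not tested.

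Taking the groups in pairs, Tek and Tie1 passed the edgeR test in all 6 comparisons of an HEI group with a FLK1+ group and in none of the 4 within a stage. Backgrounds for the 6 pairs were 22.9% of genes called for ENG+FDG- against LacZ-, 21.7% for ENG+FDG+ against LacZ-, 16.8% for ENG-FDG+ against LacZ-, 20.4% for ENG+FDG- against LacZ+, 19.5% for ENG+FDG+ against LacZ+ and 14% for ENG-FDG+ against LacZ+. The widest was that of Tie1 in ENG+FDG+ over FLK1+ LacZ- cells, 6.53 ± 0.79 (log2 difference, adjusted p = 0.000103). The narrowest was that of Tie1 in ENG-FDG+ over FLK1+ LacZ+ cells, 2.91 ± 0.66 (adjusted p = 0.0102).

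The ligands passed fewer of these pairs. Angpt1 passed in 3 of 6, namely ENG+FDG- over LacZ- (1.96 ± 0.59, adjusted p = 0.0287), ENG-FDG+ over LacZ- (3.05 ± 0.60, adjusted p = 0.00371) and ENG-FDG+ over LacZ+ (2.06 ± 0.57, adjusted p = 0.0291). Angpt2 passed in 1 of 6, ENG+FDG+ over LacZ+ (1.13 ± 0.32, adjusted p = 0.0237). With replicate number as a block, which takes out what the libraries of 1 number share, Angpt2 passed in 4 of 6. The pairs gained were ENG+FDG+ over LacZ- (0.77 ± 0.26, adjusted p = 0.0202, background 53.3%), ENG+FDG- over LacZ+ (0.81 ± 0.26, adjusted p = 0.0174, background 52.0%) and ENG-FDG+ over LacZ+ (0.91 ± 0.26, adjusted p = 0.0126, background 41.5%).

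**Figure D2:**
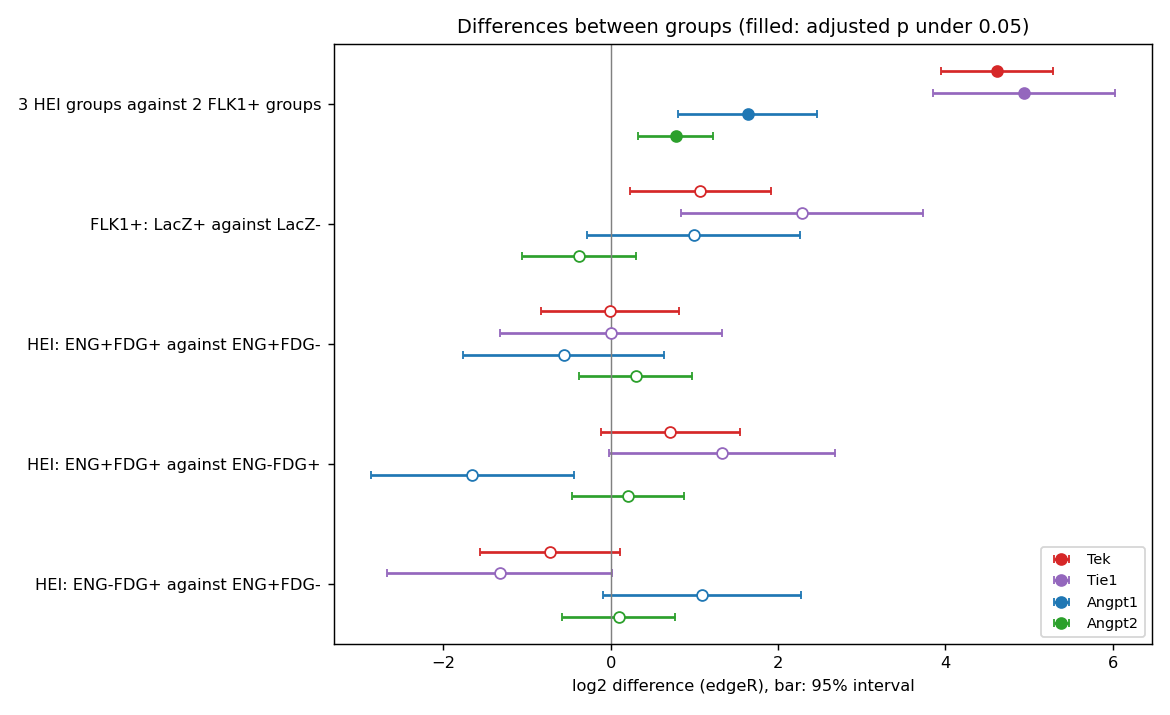
Log2 differences of the 4 genes in 5 comparisons, from the edgeR fit to 15 libraries, with 95% intervals. Filled points passed an adjusted p of 0.05, which all 4 genes did between the stages and none did within a stage; Angpt1 lies opposite to Tek and Tie1 in the comparisons with ENG-FDG+ cells.

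Ordered by mean level, Tek and Tie1 were highest in the ENG+ HEI groups, then in ENG-FDG+, FLK1+ LacZ+ and FLK1+ LacZ- cells. Between neighbours in that order, the step from FLK1+ LacZ+ to ENG-FDG+ alone passed. Angpt1 had another order, with ENG-FDG+ first, then ENG+FDG-, ENG+FDG+, LacZ+ and LacZ- cells, and no neighbours in it differed by the test. Angpt2 ran from ENG+FDG+ through ENG-FDG+, ENG+FDG- and LacZ- to LacZ+ cells, again with no neighbours that differed by the test.

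Within FLK1+ mesoderm, reporter-positive cells held more Tek, Tie1 and Angpt1 in each of their libraries, but no difference passed the test. The groups did not overlap for these 3 of the 4 genes, as for 4.01% of all genes. Log2 differences of LacZ+ over LacZ- were 1.07 ± 0.39 for Tek (2.10-fold), 2.28 ± 0.67 for Tie1 (4.87-fold), 0.99 ± 0.59 for Angpt1 and -0.38 ± 0.31 for Angpt2. In edgeR the adjusted p was 1 for each, and 0% of 13662 genes passed (0 genes, with 170 at an unadjusted p under 0.05, and 7 in DESeq2). By replicate number, Tie1 differed by 3.42, 0.75 and 0.79 and Tek by 2.36, 0.52 and 0.56, so that replicate 1 carried most of the pooled size. Without FLK1+ LacZ+ replicate 1, the Tie1 difference was 0.82. In replicates 2 and 3 alone, Tek differed by 0.53 ± 0.10 (adjusted p = 0.0543) and Tie1 by 0.79 ± 0.21 (adjusted p = 0.314). In the fit to all 15 libraries, 13 of 14 endothelial markers stood higher in LacZ+ cells, none past the threshold. Their median log2 difference in that fit was 1.29. By replicate number, their summed level was 1021, 894 and 794 CPM in LacZ+ and 522, 909 and 765 CPM in LacZ- libraries. Much of it was Kdr, the gene of the sorted FLK1. Kdr alone gave 324, 647 and 510 CPM in LacZ+ and 319, 715 and 574 CPM in LacZ- libraries. The sums therefore say little of the other markers. Replicate 1 had the largest difference of the sums, and the part of the markers in the receptors' difference was not tested.

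At the HEI stage, no difference between reporter-positive and reporter-negative ENG+ cells passed the test, and the means of both receptors nearly coincided. ENG+FDG+ and ENG+FDG- cells differed by -0.01 ± 0.38 for Tek (95% interval -0.84 to 0.82) and by 0.00 ± 0.61 for Tie1 (-1.32 to 1.33), on the log2 scale. Angpt1 differed by -0.56 ± 0.56 (-1.76 to 0.64) and Angpt2 by 0.30 ± 0.31 (-0.37 to 0.97). The groups overlapped for all 4 genes, where 3.41% of all genes did not overlap, and 0% of genes passed in edgeR (0 genes, with 39 at an unadjusted p under 0.05, and 0 in DESeq2). These intervals do not show that the fractions are alike, since each also holds values well away from 0. The reporter differences at the 2 stages were also compared with each other, and 0% of genes passed. Here Tie1 gave -2.28 ± 0.90, Tek -1.08 ± 0.55, Angpt1 -1.55 ± 0.81 and Angpt2 0.68 ± 0.44 (HEI minus FLK1+, log2, adjusted p = 0.99997 for each in edgeR). Without FLK1+ LacZ+ replicate 1 the Tie1 value was -0.82, and in replicates 2 and 3 Tie1 gave -0.65 and Tek -0.46.

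Among HEI cells with an active reporter, the means of both receptors were higher and that of Angpt1 lower in cells with ENG than in cells without it, but no difference passed the test. Tie1 was 2.51-fold higher in ENG+FDG+ than in ENG-FDG+ cells, a log2 difference of 1.33 ± 0.62 (adjusted p = 0.539). Tek was 1.64-fold higher (0.71 ± 0.39, adjusted p = 0.654). Angpt1 was lower by 3.15-fold (-1.65 ± 0.56, adjusted p = 0.294), and Angpt2 differed by 0.20 ± 0.31. Tie1 gave 0.87 without ENG+FDG+ replicate 1, and Tek 0.45 without ENG-FDG+ replicate 1. Of all 13662 genes, 0.278% passed. Groups did not overlap for Tie1 and Angpt1, as for 14.4% of all genes, and the difference had 1 direction in 3 of 3 replicate numbers for Tek, Tie1 and Angpt1.

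With the replicate block, 10.8% of genes passed between these fractions, and Tie1 (1.18 ± 0.35, adjusted p = 0.04995) and Angpt1 (-1.72 ± 0.52, adjusted p = 0.0474) were just past the threshold while Tek was not (0.74 ± 0.27, adjusted p = 0.0969). In replicates 2 and 3 alone, where 29.3% of genes passed, Tek (0.70 ± 0.07, adjusted p = 8.3e-07), Tie1 (0.99 ± 0.09, adjusted p = 7.9e-08) and Angpt1 (-1.21 ± 0.42, adjusted p = 0.0368) all passed. The common spread between libraries of a group, as a biological coefficient of variation, was 0.076 there, against 0.477 in the main fit. It may be technical, and these p-values rest on it. Angpt2 passed in none of these fits.

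Several marker lists differed between the same fractions, where 0.278% of all genes passed, and 10.8% with the block. Endothelial markers summed to 4214 to 6106 CPM in ENG+FDG+ and 2537 to 2799 CPM in ENG-FDG+ libraries, and 14 of 14 stood higher in the former, 0 past the threshold (7 with the block). Haematopoietic markers, Runx1 and Myb among them, summed to 104 to 176 CPM against 604 to 815 CPM, and 11 of 11 tested stood lower, 1 past the threshold (10 with the block). Markers of mesenchyme and mural cells, a usual source of Angpt1, summed to 605, 127 and 168 CPM in ENG+FDG+ and to 5259, 365 and 791 CPM in ENG-FDG+ libraries. Of these sums Acta2 alone gave 410, 54.9 and 76.3 CPM in ENG+FDG+ and 3602, 202 and 477 CPM in ENG-FDG+ libraries. By the fit, 10 of 12 stood lower in ENG+FDG+, 1 past the threshold (8 with the block). Angpt1 in the same ENG-FDG+ libraries was 7.55, 3.08 and 7.16 CPM. Ptprc, the pan-leukocyte gene, averaged 0.170 CPM in ENG-FDG+ cells, from 0.509 CPM in replicate 1 and 0 in replicates 2 and 3. The part of these cell types in the differences of Tek, Tie1 and Angpt1 was not tested.

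The remaining HEI pair, ENG-FDG+ against ENG+FDG-, gave -0.72 ± 0.39 for Tek (adjusted p = 0.604), -1.33 ± 0.62 for Tie1 (adjusted p = 0.535), 1.09 ± 0.55 for Angpt1 (adjusted p = 0.577) and 0.09 ± 0.31 for Angpt2. Single libraries moved these values: without ENG+FDG- replicate 1, Tie1 gave -0.76 and Angpt1 0.68, without ENG+FDG- replicate 2 Angpt1 gave 1.64, and without ENG-FDG+ replicate 1, Tek gave -0.48. The comparison shares the ENG-FDG+ libraries with the comparison before it. In edgeR 0.351% of genes passed, and groups did not overlap for Tek and Tie1, as for 14.6% of all genes. In replicates 2 and 3, with 27.1% of genes called, Tek (-0.62 ± 0.07, adjusted p = 3.7e-06) and Tie1 (-0.85 ± 0.09, adjusted p = 6.8e-07) passed, on the same small spread as above. Angpt1 was higher in ENG-FDG+ cells in replicates 1 and 3 and lower in replicate 2.

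The balance of the receptors was split by replicate number. Per kb of exon, Tek exceeded Tie1 in all 15 libraries, by 1.45 to 3.71 times in the 5 replicate 1 libraries and by 4.75 to 8.66 times in the other 10. In FLK1+ LacZ- libraries the ratio was 3.71, 8.66 and 8.59, and in ENG+FDG+ libraries 1.45, 5.06 and 4.96. Among replicates 2 and 3 it was highest in FLK1+ LacZ- cells and lowest in ENG+ HEI cells. The balance of the ligands, Angpt2 over Angpt1 per kb, was above 1 in all 15 libraries, from 1.60 to 22.4. It stood at 22.4, 8.64 and 10.8 in FLK1+ LacZ- and at 5.99, 7.05 and 3.56 in FLK1+ LacZ+ libraries. In HEI libraries it stood at 13.9, 2.33 and 4.80 in ENG+FDG-, 11.8, 7.13 and 7.34 in ENG+FDG+ and 2.28, 4.01 and 1.60 in ENG-FDG+ cells. The mean log2 ratio was lowest in ENG-FDG+ cells, though in replicate 2 ENG+FDG- lay below them.

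**Figure D3:**
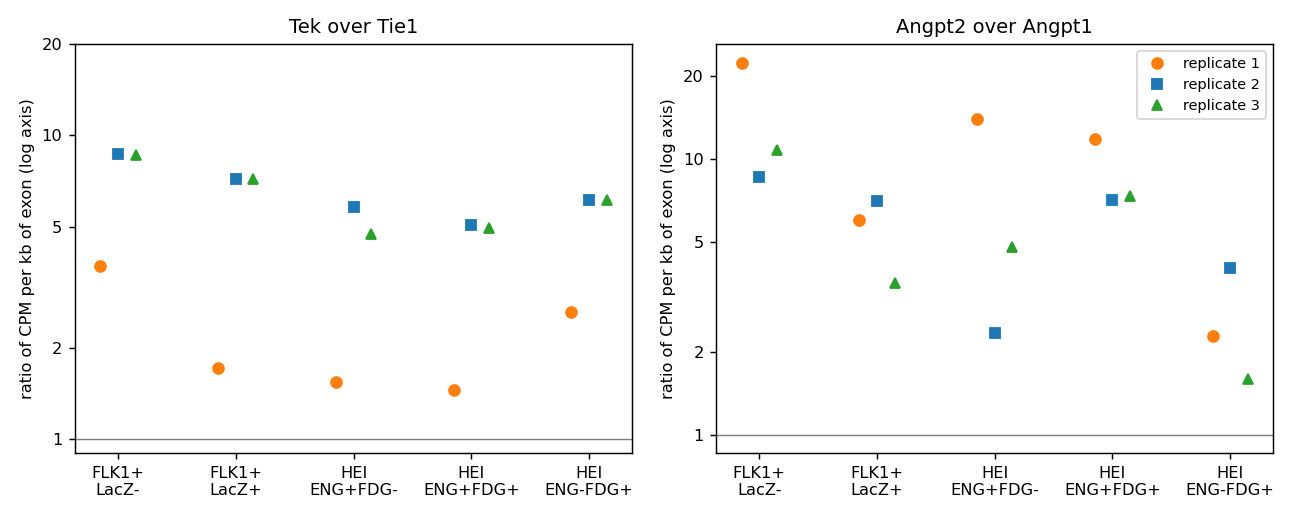
Ratio of Tek to Tie1 and of Angpt2 to Angpt1 in each library, from CPM per kb of exon, on log axes, by group and replicate number; the line marks equal levels. Replicate 1 lies lowest in every group for the receptors, and all ratios lie above 1.

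Tek and Tie1 varied together over the 15 libraries, with a Pearson correlation of log2 CPM of 0.952, or 0.996 after the mean of each replicate number was subtracted. Tek correlated with Angpt1 at 0.647 and with Angpt2 at 0.669, Tie1 with Angpt1 at 0.535 and with Angpt2 at 0.703, and Angpt1 with Angpt2 at 0.415. These values describe 15 libraries that share groups and replicate numbers, and most of the spread of the receptors lies between the stages.

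The genes whose pattern was most like each member were taken from 8738 named genes averaging at least 10 CPM, by the same correlation. For Tek they were Mtus1, Cd38, which encodes an NAD-consuming ectoenzyme, and Mef2c, a transcription factor of heart and vessel development (0.994 each). For Tie1 they were Cdh5, the VE-cadherin of endothelial junctions (0.994), Dysf, which encodes the membrane repair protein dysferlin (0.993), and Esam, an endothelial adhesion molecule (0.992). Cdh5 averaged 13.4 ± 2.61 CPM in FLK1+ LacZ- and 1847 ± 494 CPM in ENG+FDG+ cells. The ligands had looser company: Xk, Ppfia1 and Arhgap21 for Angpt1 (0.903, 0.898 and 0.894) and Alkbh3, Commd3 and Serpinb9b for Angpt2 (0.906, 0.885 and 0.882). Xk, like Angpt1, was highest in ENG-FDG+ cells, at 21.8 ± 1.90 CPM against 9.16 ± 2.58 in ENG+FDG+ cells.

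Around the receptors, 52 other genes of the TIE pathway were examined in 5 lists by role, and 48 had enough reads to test. Between the stages 15 rose and 6 fell, which is 43.8% of those tested, against the 37.3% of all genes that passed. With the replicate block 24 rose and 10 fell, 70.8% of those tested, against 66.2% of all genes. Their median log2 difference was 0.24, against -0.11 over all genes.

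Of the 7 membrane partners and sheddases 5 rose and none fell without the block, where 37.3% of all genes passed. Ptprb, the VE-PTP phosphatase that removes phosphate from TIE2, went from 14.9 ± 2.53 CPM in FLK1+ LacZ- to 508 ± 33.0 CPM in ENG+FDG+ cells, a stage difference of 4.29 ± 0.20 (log2, adjusted p = 2.4e-08). Tspan18, a tetraspanin, rose by 3.58 ± 0.32, Adam10, a sheddase, by 1.31 ± 0.40, and Itgb1, the beta-1 integrin that can associate with TIE2, by 1.28 ± 0.21. The sheddases Adam17 (0.29 ± 0.19) and Mmp14 (-0.68 ± 0.30) did not pass. With the block, where 66.2% of all genes passed, all 7 did. Adam17 was among the 6 that rose (0.29, adjusted p = 0.00116) and Mmp14 was the 1 that fell (-0.74, adjusted p = 0.000673).

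Transcription factors and targets downstream rose in 5 of 9 tested genes, with 1 fall (6 and 1 with the block). Of all genes 37.3% passed, and 66.2% with the block. Klf2, a flow-responsive factor of endothelium, rose by 4.97 ± 1.0, with HEI libraries as far apart as 30.8 and 425 CPM. Nos3, the endothelial nitric oxide synthase, rose by 3.30 ± 0.44, and Pdgfb, the growth factor by which endothelium recruits mural cells, by 2.92 ± 0.49. Klf4, which is also a pluripotency factor, rose by 2.28 ± 0.65. Foxo1, the factor that AKT keeps out of the nucleus downstream of TIE2 and that drives Angpt2 in endothelium, rose by 1.97 ± 0.25, from 20.1 ± 3.30 CPM in FLK1+ LacZ- to 106 ± 16 CPM in ENG+FDG- cells. Birc5, which encodes survivin, fell by 0.62 on the log2 scale (SE 0.14, adjusted p = 0.00269).

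For the lists that follow, 37.3% of all genes passed without the block and 66.2% with it. Of 15 kinases and kinase subunits 4 rose and 2 fell, a share of 40% near the 37.3% (8 and 4 with the block). They included Pik3cb, a PI3-kinase catalytic subunit, at 1.78 ± 0.23, Fyn, a SRC-family kinase, at 1.77 ± 0.26, Pak1 at -2.24 ± 0.24 and Ptk2, the focal adhesion kinase, at 1.16 ± 0.13. Of 11 adaptors 1 rose and 2 fell (4 and 2 with the block). Tnip2, also known as ABIN-2, rose by 1.72 ± 0.27, and Ptpn11, the SHP2 phosphatase, changed by -0.48 ± 0.12. Grb7 went from 6.39 ± 4.46 CPM in FLK1+ LacZ- to 0.0649 ± 0.0562 CPM in ENG+FDG+ cells. Of 6 tested ligand-related genes none rose and 1 fell (2 fell with the block). The 1 was Angptl4, a lipase inhibitor, which changed by -2.92 ± 0.63 at low levels. It stood at 0.463 to 2.75 CPM in FLK1+ libraries and at no more than 0.520 CPM in HEI libraries.

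**Figure D4:**
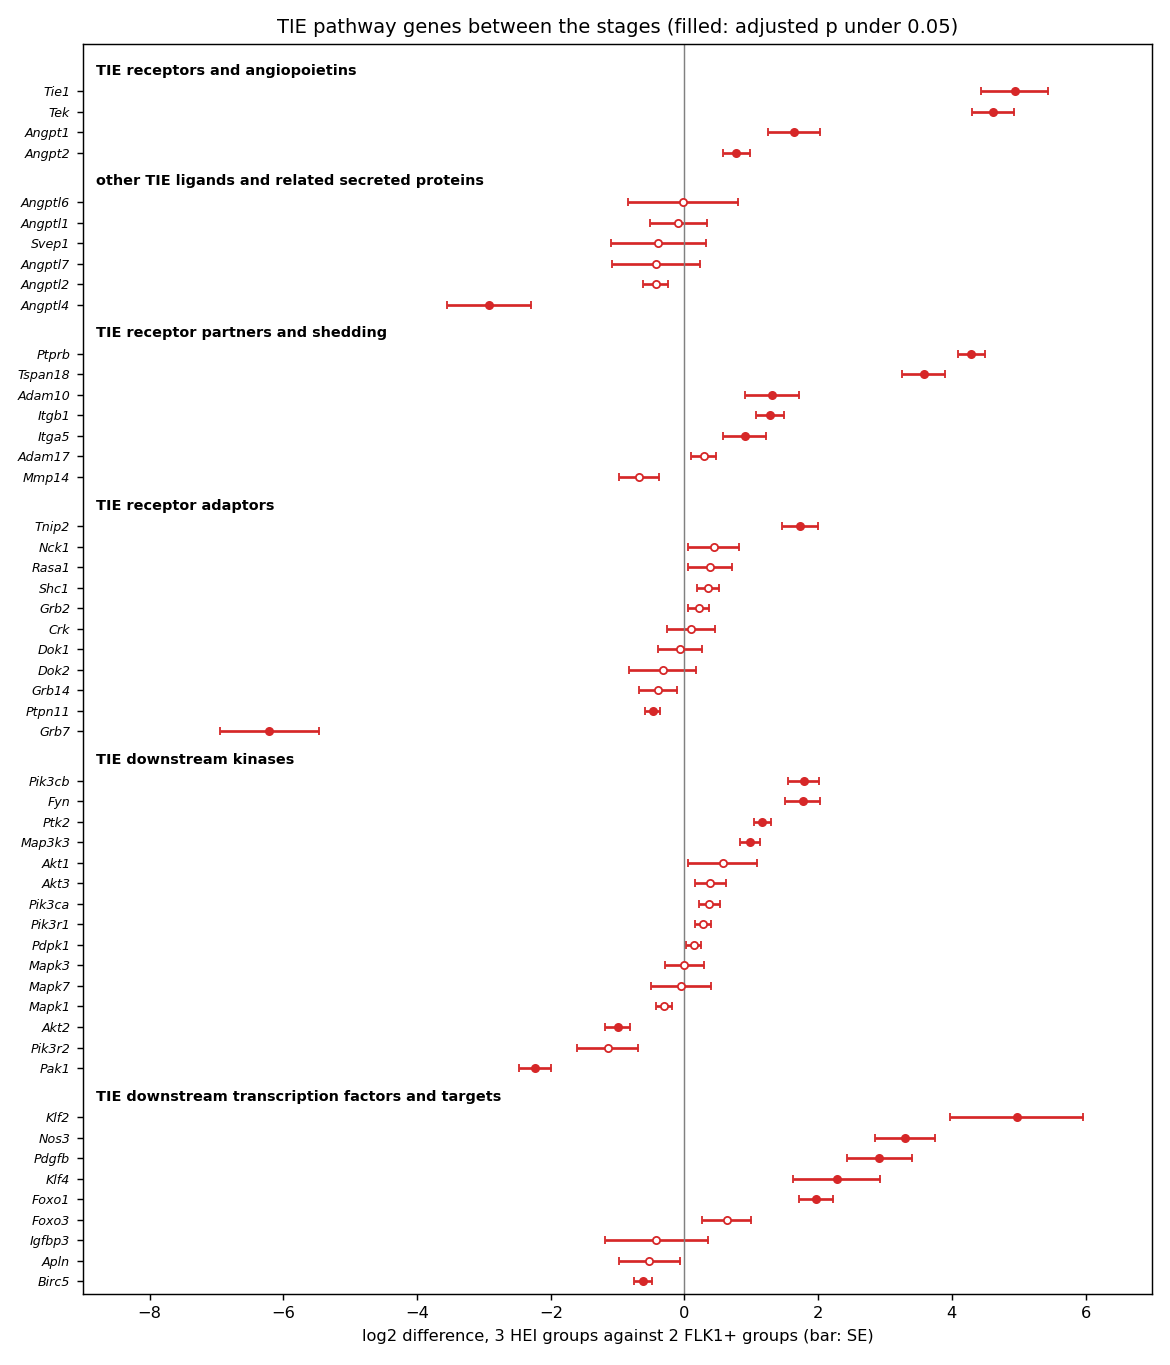
Log2 difference between the mean of 3 HEI groups and the mean of 2 FLK1+ groups for the 4 genes and the 48 tested pathway genes, ordered within lists by role; bars are standard errors and filled points passed an adjusted p of 0.05. Tek, Tie1, Ptprb and Klf2 lie above 4 and Grb7 below -6.

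Within a stage none of the 48 genes passed in any comparison without the block. In ENG+FDG+ against ENG-FDG+ cells 27 stood higher, with a median of 0.14 against -0.05 over all genes. Itgb1 and Tspan18, the partners with the highest mean level, differed by 0.03 ± 0.32 and 0.74 ± 0.42. With the replicate block 9 rose and 2 fell in that comparison, against the background of 10.8%. Among them, named after their values were seen, were Nos3 (2.08, adjusted p = 0.00483), Klf4 (1.05, adjusted p = 0.000841), Klf2 (0.997, adjusted p = 0.00263) and Ptprb (0.68, adjusted p = 0.0460), all higher where ENG was present. Svep1, an extracellular matrix protein that can bind TIE1, was lower there (-4.48, adjusted p = 0.0367), but its groups overlapped. It stood at 0.60 ± 0.44 CPM in ENG+FDG+ libraries, with 0.911 CPM as the highest. In ENG-FDG+ libraries it stood at 17.3 ± 26.2 CPM, from 0.866 to 47.6 CPM.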

How the data were processed

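Gene expression was measured by RNA sequencing of RNA amplified with a Nugen kit, per the labels' protocols. The authors deposited raw read counts per gene symbol, made with STAR 2.4.0 and HTSeq 0.6.1 on mm10, per the submitters' processing notes. The annotation and strand setting are not given in these sources. Of 24061 table rows, 27 with a calendar date for a symbol were left out. Coordinates and exon lengths came from GENCODE M21, which matched 22723 of 24034 symbols, and promoters from RefSeq, which matched 2 of the 4 members.

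Samples were grouped by their labels. edgeR 4.0.16 (limma 3.58.1, R 4.3.3) fitted 1 quasi-likelihood model to all 15 libraries, with TMM scaling and filterByExpr, which kept 13662 genes. P-values were adjusted by Benjamini-Hochberg over those genes, with a threshold of 0.05. SE of a log2 difference is that which gives the test statistic. Intervals are 95%. A count of 0 was taken to allow 3 counts. Correlations used log2 CPM with a prior count of 2. The code of the fit was run on simulated counts with a smaller spread than these data and no shift of replicate 1. That run gives no error rate for these libraries. Deviations from group means of same-numbered libraries correlated at 0.432 to 0.867 in all 30 pairs. With replicate 1 apart in every group, replicates 2 and 3 deviate the same way, and differently numbered libraries were not compared. These correlations therefore cannot show which of replicates 2 and 3 belong together. That replicate numbers pair the samples is an assumption of the block, not stated in the labels.

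Named genes were the 4 members, the 3 genes most correlated with each, and of each pathway list up to 4 that passed by size of change, or the 2 of highest level, and a few added after their values were seen are named as such or given as contrasts. The members, lists, rules and alternatives were chosen with earlier results of these data known. Alternatives were RLE factors, no filter, a filter of 5 CPM in 3 libraries, only the groups compared, DESeq2 1.42.0, a replicate block, replicates 2 and 3 only, each library left out, and other measures of likeness.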

Additional observations from a re-analysis of the deposited data

How the results depend on the processing

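The stage rise of each of the 4 genes passed under every alternative that gave a value, from 4.46 to 4.86 for Tek, 4.74 to 5.67 for Tie1, 1.46 to 1.85 for Angpt1 and 0.67 to 0.91 for Angpt2 (log2), with adjusted p no higher than 0.0273. The replicate block, which pairs libraries by number, brought 2 differences of ENG+FDG+ against ENG-FDG+ past the threshold, Tie1 (1.18) and Angpt1 (-1.72), and changed no other call in the 6 main comparisons. Replicates 2 and 3 alone brought 5 past it: Tek (0.70), Tie1 (0.99) and Angpt1 (-1.21) in that comparison, and Tek (-0.62) and Tie1 (-0.85) in ENG-FDG+ against ENG+FDG-. The common spread between libraries of a group, as a biological coefficient of variation, was 0.477 in the main fit and 0.076 in replicates 2 and 3. For those 5 the cause was not tested.

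Differences near 0 changed sign. In ENG+FDG+ against ENG+FDG-, Tek became 0.011 with the 5 CPM filter, 0.0029 with only the groups compared and 0.074 in replicates 2 and 3, and ranged from -0.17 to 0.19 with 1 library left out; Tie1 became -0.0031 in DESeq2, -0.0023 with RLE factors and -0.00088 without a filter, and ranged from -0.46 to 0.57. In ENG-FDG+ against ENG+FDG-, Angpt2 became -0.052 in replicates 2 and 3 and ranged from -0.14 to 0.20. The causes were not tested. Of 362 values recomputed for 24 differences, 340 kept direction and side of the threshold. RLE factors moved the all-gene median by at most 0.02, kept the order of levels for 3 genes and swapped the nearly equal ENG+ HEI groups for Tie1. Angpt1 fell out under the 5 CPM filter, and a fit of only the groups compared equals the main one for the stages. Of the 12 genes most like the members, 0 were also named by Spearman correlation and 1, Cdh5, after subtraction of replicate means. Angpt1 rests on 8 to 89 reads a library, which limits its precision.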
